A study of Rattus norvegicus with 6 samples.

Results

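The interleukin 1 family and its receptors were followed in rat common carotid artery through 9 transcripts: the ligands Il1a, Il1b, Il33 and Il18, the inhibitors Il1rn and Il1r2, and the receptor chains Il1r1, Il1rap and Il1rl1. They were found by symbol in the deposited read-count table, which held all 9 among its 24005 gene symbols, and all 9 passed the filter on low counts. Polyadenylated mRNA had been sequenced in 6 libraries. The control was 1 normal artery with neither clot nor treatment. The recanalized groups, 3 libraries at day 1 and 2 at day 7, shared a clot induced with ferric chloride, which damages the artery's lining by oxidation, and reopening by sonodynamic therapy (ultrasound acting on a sensitizer) together with what the submitters call physical-explosion therapy. The labels used here give no strain, sex or age and do not say whether the libraries come from separate animals, so the p-values cover the spread between these libraries, which may be technical. Injury, clot and treatment came together in every recanalized library and cannot be told apart.

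Interleukin 1α and interleukin 1β, encoded by Il1a and Il1b, act through the same receptor, Il1r1, which signals once the accessory chain Il1rap joins it. Il1rn encodes a secreted antagonist that occupies Il1r1 without signalling, and Il1r2 a decoy receptor that binds the ligands but lacks the signalling domain. Interleukin 33 (Il33) is a nuclear protein of barrier and stromal cells that is released on damage and binds Il1rl1, also called ST2, again with Il1rap. Interleukin 18 (Il18) is cleaved, like interleukin 1β, by caspase 1, and has its own receptor chains, Il18r1 and Il18rap. Counts per gene do not separate the soluble from the membrane form of Il1rl1 or the secreted from the intracellular form of Il1rn.

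The 250 bases before a transcription start, from RefSeq on the build GRCr8, are shown for Il1a, Il1b and Il1r1. The neighbouring genes Il1a and Il1b were nearly silent in the normal artery, and Il1r1 was the most abundant member there. This choice sets a scarce, widely ranging pair beside an abundant gene of narrower range. Capitals mark matches to TATAAA, to TGANTCA (the AP-1 motif) and to the consensus motif of NF-kB, each searched on both strands. No 2 matches in these windows overlap.
Il1a (chr3:136990018-136990267, minus strand): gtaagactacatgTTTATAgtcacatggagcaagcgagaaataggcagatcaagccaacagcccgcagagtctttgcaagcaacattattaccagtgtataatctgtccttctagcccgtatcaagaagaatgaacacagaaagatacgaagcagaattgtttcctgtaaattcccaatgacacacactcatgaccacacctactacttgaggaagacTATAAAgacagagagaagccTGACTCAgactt
Il1b (chr3:137036582-137036831, minus strand): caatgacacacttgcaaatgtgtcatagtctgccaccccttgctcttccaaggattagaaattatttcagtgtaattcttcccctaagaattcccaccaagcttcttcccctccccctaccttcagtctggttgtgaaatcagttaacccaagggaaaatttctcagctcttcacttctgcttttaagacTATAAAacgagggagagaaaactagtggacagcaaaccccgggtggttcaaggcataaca
Il1r1 (chr9:50034133-50034382, plus strand): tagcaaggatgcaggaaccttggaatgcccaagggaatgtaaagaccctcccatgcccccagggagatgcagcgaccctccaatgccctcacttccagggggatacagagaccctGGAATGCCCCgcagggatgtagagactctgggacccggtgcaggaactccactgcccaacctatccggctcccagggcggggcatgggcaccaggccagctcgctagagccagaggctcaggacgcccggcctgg

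Il1a and Il1b both held TATAAA on the gene's strand, 32 and 60 bases before the start, and Il1a also held TGACTCA 12 bases before it. The Il1r1 window held none of these and 1 match to the NF-kB consensus. Over 33469 rat promoter windows of the same length, TATAAA in either direction was present in 12.9%, TGANTCA in 6.34% and the NF-kB consensus in 6.33%. The G and C content was 42.0% for Il1a, 44.0% for Il1b and 63.6% for Il1r1, against a median of 51.2% over all windows. Il1rap had the richest windows, at 78.4% and 72.4% for its 2 listed starts. The other windows lay lower, at 48.4% for Il1rn, 38.4% for Il1rl1 and Il18, and 47.2% and 39.6% for the 2 starts of Il33. The 2 receptor chains with GC-rich windows, Il1r1 and Il1rap, were also the 2 members that differed least between libraries, which describes the 8 members with a promoter entry and was not tested. The window of the second Il33 start also held TATAAA on the gene's strand, 29 bases before that start. The Il1rn and Il1rl1 windows held it on the other strand. Both Il1rap windows held the NF-kB consensus, and the Il18 window held none of the 3 motifs. A match describes these letters only.

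Library totals were 30078022 to 47240013 counts. Levels are given as CPM, counts scaled to the library total after trimmed-mean (TMM) normalization, and 3 counts correspond to 0.0598 to 0.0974 CPM. Markers of smooth muscle, endothelium and fibroblasts, the cells of an artery, were present in all 6 libraries. Smooth muscle markers summed to 27937 CPM in the control, 28498, 6584 and 10016 CPM at day 1 and 17429 and 17333 CPM at day 7, and so were lowest in day 1 replicates 2 and 3. Day 1 replicate 1 stood apart: across the tested genes, its correlation with the control (Pearson r of log2 CPM 0.948) exceeded those with the other day 1 libraries (0.883 and 0.919), whose own r was 0.958. Whether its label is right could not be settled from the files. Unlike the control it held 227 CPM of Ptgs2 and 61.1 CPM of Il6, against 18.3 and 0.0649 CPM, values near those of the other day 1 libraries. Other genes lay nearer the control there. Nfkbia had 119 CPM both there and in the control, against 287 and 250 CPM in the other day 1 libraries. Csf3 had 0.544 CPM there and 0.292 in the control, against 42.4 and 3.19 CPM. Nfkbia was chosen after the values were seen. Fold changes are given with day 1 replicate 1 and without it. Since it was singled out for its likeness to the control, leaving it out favours larger differences from that control and more passes, and every result marked as without it carries this limit. Its summed red cell markers were also the highest, at 2333 CPM against 42.7 to 1284 CPM elsewhere, and their part in its values was not tested. In bulk tissue, fewer cells of a type and less RNA per cell cannot be told apart.

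Day 1 replicates 2 and 3 held far more transcript than the normal artery for most of the family, and day 1 replicate 1 did so only in part. The same 2 libraries had the lowest smooth muscle marker sums, whose part in these values was not tested. Above the control were 6 of the 9 members in replicate 1, all 9 in replicates 2 and 3, and 8 in each day 7 library, where 48.6%, 50.5%, 51.1%, 54.0% and 52.6% of all tested genes were above it. The day 1 libraries differed by more than 5-fold for 7 of the 9 members, against 12.9% of the 14879 tested genes with counts in all 3, and replicate 1 was the lowest for 8 of them, against 38.4% of those genes.

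**Figure D1:**
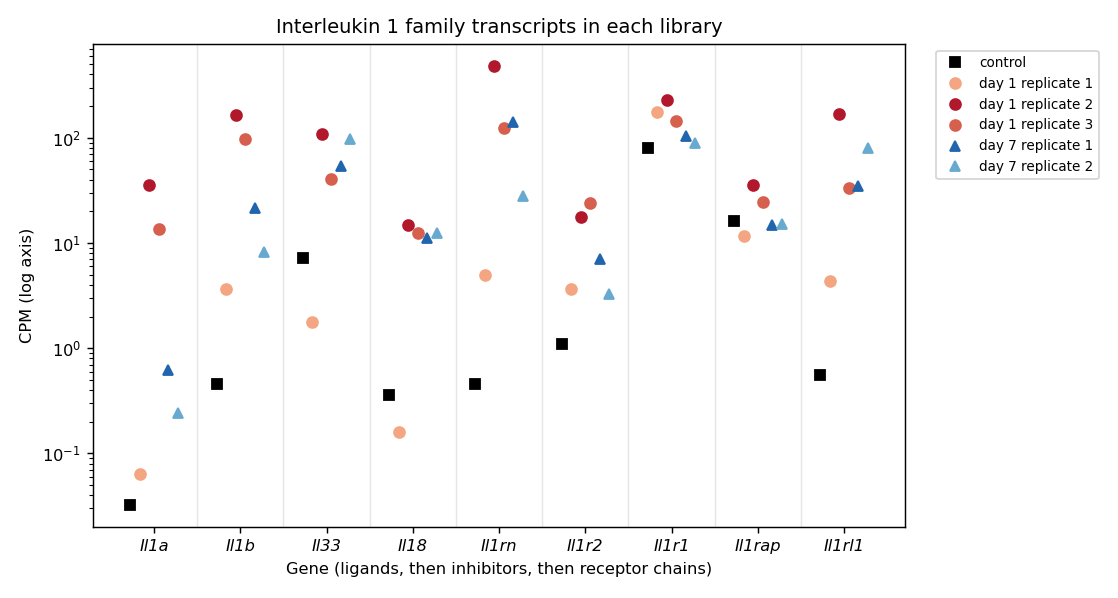
CPM on a log axis for each of the 9 members, 1 point per library (control as squares, day 1 as circles, day 7 as triangles). Il1r1 spans 80.7 to 228 CPM, whereas Il1b spans 0.455 to 166 CPM and Il1a stands on 1 count in the control and 2 counts in day 1 replicate 1.

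Il1b, the inducible ligand made mainly by myeloid cells, stood at 0.455 CPM in the control, at 3.62, 166 and 97.2 CPM in the 3 day 1 libraries, and at 21.5 and 8.23 CPM at day 7. All 5 treated libraries were above the control, and both day 7 libraries lay between day 1 replicate 1 and the other day 1 libraries, so the 2 time points overlapped. The log2 fold change was 7.60 ± 2.75 (SE) at day 1 and 5.02 ± 2.48 at day 7 against the control, and neither passed (edgeR adjusted p = 0.577 and 0.483). Both passed without day 1 replicate 1, at 8.16 ± 1.01 (edgeR adjusted p = 0.0145) and 5.03 ± 0.894 (edgeR adjusted p = 0.0427).

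Il1a, the ligand that many cells hold as a precursor and release when damaged, had 1 count in the control and 2 in day 1 replicate 1, which counting cannot tell apart (CPM ratio 1.97, counting 95% interval 0.103 to 116). Day 1 replicates 2 and 3 held 1148 and 421 counts, or 35.4 and 13.6 CPM. The day 7 libraries held 31 and 8 counts, or 0.618 and 0.243 CPM. Against the control, the ratio in day 1 replicate 2 was 1090 (195 to 43090) and in replicate 3 it was 418 (74.5 to 16531). The day 7 ratios were 19.0 (3.17 to 776) and 7.48 (1.00 to 332), all intervals covering counting error only. The transcript was thus abundant in 2 libraries of the 6. Day 1 against the control did not pass with all libraries (edgeR adjusted p = 0.590) and passed without day 1 replicate 1 (edgeR adjusted p = 0.0177).

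Il33 differed in its order from the interleukin 1 ligands. It was already present in the control at 7.14 CPM, was lower in day 1 replicate 1 at 1.76 CPM, and reached 109 and 40.7 CPM in the other day 1 libraries and 54.2 and 96.8 CPM at day 7. Day 1 therefore overlapped the control, whereas both day 7 libraries were above it, and the time points overlapped each other. Its log2 fold change was 2.82 ± 2.09 at day 1 and 3.40 ± 2.22 at day 7 (edgeR adjusted p = 0.668 and 0.543). Without day 1 replicate 1 these were 3.39 ± 0.788 and 3.40 ± 0.789, still short of the threshold (edgeR adjusted p = 0.0773 and 0.0858).

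Il18 was rare in the control (11 counts, 0.357 CPM) and in day 1 replicate 1 (5 counts, 0.160 CPM). In the other 4 libraries it lay in a narrow band, at 14.7 and 12.4 CPM at day 1 and at 11.2 and 12.5 CPM at day 7. Day 1 without replicate 1 was 5.23 ± 0.514 above the control on the log2 scale and day 7 5.03 ± 0.510, and both passed (edgeR adjusted p = 0.00725 and 0.00742), whereas with all libraries the values were 4.66 ± 2.49 and 5.03 ± 2.58 (edgeR adjusted p = 0.600 and 0.489). In the GRCr8 annotation Il18 overlaps Bco2 and Tex12, and how the authors assigned shared reads is not stated. Bco2 had 0.812 CPM in the control, 0.576, 6.63 and 6.92 at day 1 and 3.43 and 4.34 at day 7. Tex12 had 1.82 CPM, 2.02, 11.7 and 9.47, and 1.56 and 4.43 in the same order, so part of the Il18 count is uncertain.

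Il1rn, the receptor antagonist, reached the highest level of the family. It stood at 0.455 CPM in the control, at 4.96, 482 and 125 CPM in day 1 replicates 1 to 3, and at 140 and 28.2 CPM at day 7. Every treated library was above the control, and the 2 time points overlapped. Fitted log2 fold changes were 8.80 ± 3.49 at day 1 and 7.52 ± 3.34 at day 7 (edgeR adjusted p = 0.578 and 0.477). Without day 1 replicate 1 it was 9.37 ± 1.92 and 7.52 ± 1.79 and did not pass (edgeR adjusted p = 0.0608 and 0.0953). The gene overlaps Il36b in the GRCr8 annotation, and Il36b, another ligand of the superfamily, had 0 counts in the control, 0.160, 15.9 and 7.53 CPM at day 1 and 3.29 and 2.58 CPM at day 7, so reads may be shared between them.

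The decoy receptor Il1r2 stood at 1.10 CPM in the control, at 3.62, 17.7 and 23.8 CPM at day 1 and at 7.10 and 3.25 CPM at day 7. It was above the control in each treated library, and the higher day 7 library fell within the day 1 range. The log2 fold change at day 1 was 3.76 ± 1.34 (edgeR adjusted p = 0.577), and it passed without replicate 1, at 4.23 ± 0.688 (edgeR adjusted p = 0.0245). At day 7 it was 2.23 ± 1.25 (edgeR adjusted p = 0.505), and did not pass without that library either (2.23 ± 0.624, edgeR adjusted p = 0.114).

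The signalling receptor Il1r1 spanned a narrow range by comparison and was the one member for which day 1 replicate 1 was not the lowest day 1 library. It stood at 80.7 CPM in the control, at 178, 228 and 145 CPM at day 1 (mean 183 ± 41.8, SD, n = 3) and at 105 and 90.1 CPM at day 7 (mean 97.4 ± 10.3, SD, n = 2). All day 1 libraries were above all day 7 libraries, and all day 7 libraries were above the control. The log2 fold change was 1.18 ± 0.354 at day 1 and 0.27 ± 0.353 at day 7 against the control, and -0.91 ± 0.268 for day 7 against day 1. The unadjusted p was 0.0169 and 0.0156 for the first and the last, and neither passed once adjusted (edgeR adjusted p = 0.553 and 0.459). Leaving out day 1 replicate 1 left the 3 values at 1.21, 0.27 and -0.93.

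Il1rap, the chain shared by the receptors for interleukin 1 and interleukin 33, differed least from the control. It stood at 16.2 CPM there, at 11.7, 35.7 and 24.7 CPM at day 1, and at 14.7 and 15.3 CPM at day 7. Both day 7 libraries were just below the control, with counting intervals of the ratio that include equality (0.812 to 1.02 and 0.835 to 1.07). The log2 fold change was 0.57 ± 0.620 at day 1 and -0.11 ± 0.633 at day 7 (edgeR adjusted p = 0.764 and 0.953), and 0.90 ± 0.361 and -0.11 ± 0.347 without day 1 replicate 1 (edgeR adjusted p = 0.217 and 0.897).

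Il1rl1, the receptor for interleukin 33, had 0.552 CPM in the control, 4.39, 169 and 33.3 CPM at day 1 and 34.5 and 80.7 CPM at day 7. Each treated library was above the control, and day 7 lay inside the day 1 range. Its log2 fold change was 6.95 ± 2.69 at day 1 and 6.70 ± 2.68 at day 7 (edgeR adjusted p = 0.577 and 0.477). Without day 1 replicate 1 it was 7.51 ± 1.56 and 6.70 ± 1.51 (edgeR adjusted p = 0.0631 and 0.0858). In GRCr8 the gene lies in a run of related receptors on chromosome 9, in the order Il1r2, Il1r1, Il1rl2, Il1rl1, Il18r1 and Il18rap, with H3f3al3 between the first pair. Its neighbour Il1rl2, a receptor for the interleukin 36 ligands, spanned far less, with 5.94 CPM in the control, 18.5, 22.3 and 7.28 at day 1 and 4.71 and 15.3 at day 7.

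Counted together, 0 of the 9 members passed in any of the 3 comparisons with all libraries by edgeR, where 0% of the 15860 tested genes passed in either direction. At an unadjusted p under 0.05, day 1 against the control had 4 members, all higher (Il1b, Il1r1, Il1r2 and Il1rl1), beside 6.13% of all genes higher and 2.53% lower. Day 7 against the control had 0, beside 6.12% higher and 3.97% lower. Every day 1 library was above the control for 6 members, against 27.5% of all genes, and below it for 0, against 27.2%. At day 7 both libraries were above the control for 8 members, against 42.9%, and below it for 1, against 36.2%. The members' median log2 fold change was 4.66 at day 1 and 3.61 at day 7, against 0.06 and 0.09 over all tested genes. Limma-voom also called 0 members.

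With day 1 replicate 1 left out, edgeR called 4 members higher at day 1 (Il1a, Il1b, Il1r2 and Il18), beside 4.83% of 15784 genes higher and 0.773% lower. It called 2 at day 7 (Il1b and Il18), beside 3.81% higher and 0.577% lower. DESeq2 on all libraries called 5 higher at day 1, Il1a, Il1b, Il1rn, Il1r2 and Il1rl1, beside 4.46% of all genes higher and 0.687% lower. At day 7 it called Il1b, Il1rn and Il1rl1 higher, beside 3.90% higher and 1.08% lower. The 2 comparisons share the same control library, so a count low or high in that library enters both.

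**Figure D2:**
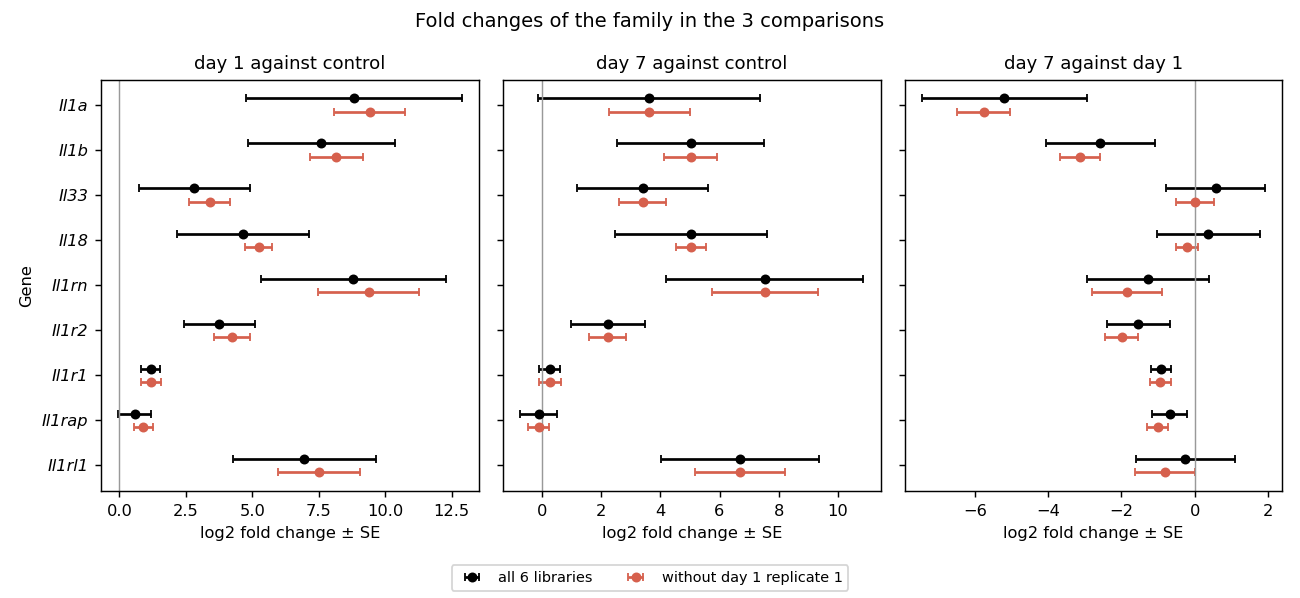
Log2 fold change with its SE for each member in the 3 comparisons, with all 6 libraries (black) and without day 1 replicate 1 (red). Without that library the SE of Il1b at day 1 is 1.01 in place of 2.75 while the log2 fold change is 8.16 in place of 7.60; the Il1a values against the control rest on 1 control count.

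Between day 7 and day 1 no member passed. The fitted fold change was negative for 7 members and positive for Il33 and Il18, with a median of -0.91 against 0.00 over all genes. By size, Il1a was lowest at day 7 (-5.21 ± 2.26, edgeR adjusted p = 0.511), followed by Il1b (-2.58 ± 1.48, adjusted p = 0.571) and Il1r2 (-1.53 ± 0.863, adjusted p = 0.560). Il1r1 was the only member with every day 7 library below every day 1 library, which held for 16.0% of all genes, and the reverse, true of 0 members, held for 17.2%. It was also the only member with an unadjusted p under 0.05, beside 5.43% of genes lower and 4.67% higher. DESeq2 called Il1a lower (log2 fold change -5.27, DESeq2 adjusted p = 0.0360), beside 1.87% of genes lower and 1.32% higher. Leaving out day 1 replicate 1 gave -5.78 for Il1a, -3.14 for Il1b and -2.0 for Il1r2, against 0.01 for Il33, and Il18 turned to -0.20. By edgeR this fit again called 0 members and 0% of all genes.

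Il1rl1, Il1rn and Il18 gave no stable direction between the time points. Il1rl1 was -0.26 ± 1.35 with all libraries, 1.61 without day 1 replicate 2 and -1.0 without day 7 replicate 2. Il1rn was -1.28 ± 1.68 with all libraries and 0.38 without day 1 replicate 2. For Il18 the value was 0.38 ± 1.40 with all libraries, and all 4 treated libraries other than day 1 replicate 1 lay between 11.2 and 14.7 CPM.

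Levels of different genes were compared per length, in the authors' FPKM, fragments scaled to gene length and library total. In the normal artery the receptor chains Il1r1 and Il1rap led, at 14.0 and 4.52 FPKM, followed by the ligand Il33 at 2.77. Every other member was below 1, from Il1r2 at 0.685 down to Il1a at 0.0157. The receptor chain Il1rl1 was among these, at 0.122 FPKM. Day 1 replicate 1 kept Il1r1 and Il1rap first, at 27.8 and 2.93 FPKM. In day 1 replicates 2 and 3 the antagonist and Il1b led instead, with Il1rn at 187 and 48.1 FPKM and Il1b at 131 and 76.4, and Il1rap, at 10.8 and 7.40, had become one of the 2 scarcest members.

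At day 7 the leading member was Il1rn in replicate 1 (55.6 FPKM) and Il33 in replicate 2 (41.1 FPKM). The ligand and receptor Il33 and Il1rl1 took the first 2 places in replicate 2, with Il1rl1 at 19.6 FPKM, whereas Il1b stood at 6.60. In replicate 1 Il33 was at 23.2, Il1r1 at 20.1, Il1b at 17.4 and Il18 at 16.8 FPKM, and the differences among these 4 were smaller than those between the 2 libraries for Il33 and Il1b. Il1a was the scarcest member in every library except day 1 replicate 2, where it stood at 18.5 FPKM and Il1rap was the scarcest.

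Ratios within a library do not depend on its total. The antagonist over the ligand, Il1rn to Il1b, was 0.491 in the control (counting 95% interval 0.217 to 1.11), 0.673, 1.43 and 0.630 at day 1, and 3.20 and 1.68 at day 7. Both day 7 ratios were above all day 1 ratios, by a mean of 1.46 on the log2 scale, or 1.29 without day 1 replicate 1 (with all libraries, exact permutation test, two-sided, p = 0.2, the smallest that 3 against 2 libraries can give). The decoy over the signalling receptor, Il1r2 to Il1r1, was 0.0489 in the control, 0.0727, 0.278 and 0.587 at day 1 and 0.242 and 0.129 at day 7. Its time points overlapped, and the log2 difference was -0.37, -1.19 without day 1 replicate 1 and 0.31 without day 1 replicate 3 (with all libraries, exact permutation test, two-sided, p = 0.8).

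Il1b to Il1a was 7.08 and 10.9 in day 1 replicates 2 and 3 and 52.7 and 51.3 at day 7. In the control and in day 1 replicate 1 it was 21.2 (3.22 to 896) and 85.5 (23.1 to 714), values that rest on 1 and 2 counts of Il1a, and the time points overlapped (exact permutation test, two-sided, p = 0.6). These are ratios of transcripts per length and say nothing of the secreted or cleaved proteins.

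**Figure D3:**
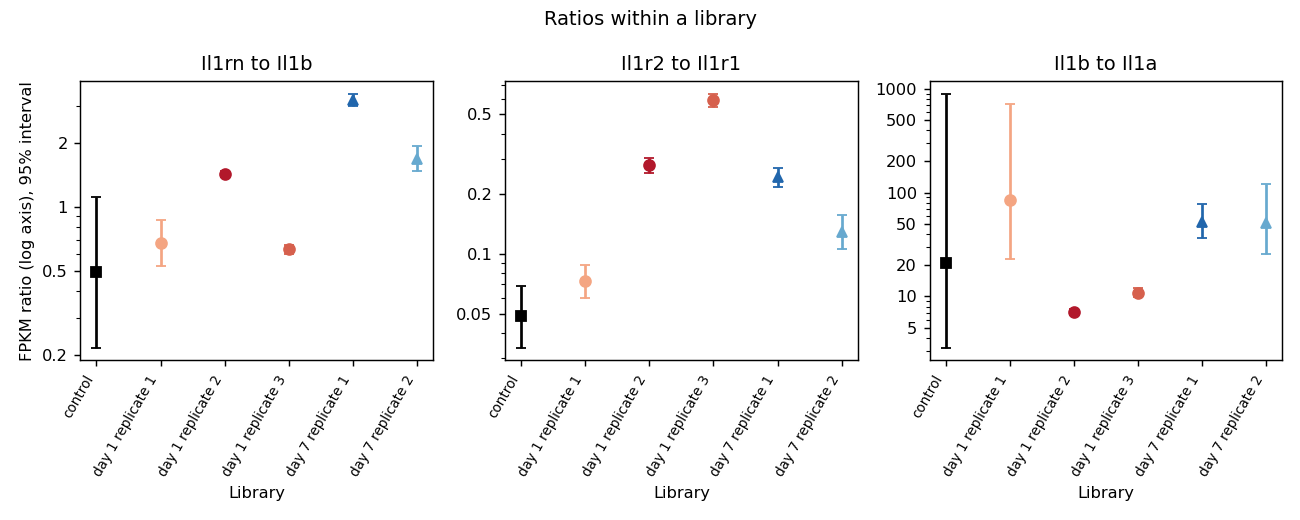
FPKM ratios within each library on log axes, with intervals for counting error only. Il1rn to Il1b is 3.20 and 1.68 in the day 7 libraries and at most 1.43 in the others, and Il1r2 to Il1r1 is highest in day 1 replicate 3, at 0.587.

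Leukocyte markers are set beside the members here. The 11 monocyte and macrophage markers summed to 89.1 CPM in the control, 54.9, 6180 and 2781 CPM at day 1, and 6273 and 5075 CPM at day 7, and all of them had counts in every library. The 10 neutrophil markers summed to 3.51 CPM in the control, 33.9, 70.3 and 125 CPM at day 1, and 16.3 and 15.7 CPM at day 7, with 2 of them at 0 in the control. Il18, like the macrophage sum, was below the control in day 1 replicate 1, and it stood at similar levels in the other 4 libraries. The Il18 difference rests on 5 against 11 counts, which counting cannot tell apart (CPM ratio 0.448, counting 95% interval 0.122 to 1.40). Of the macrophage markers, Lyz2 (27.5 against 13.1 CPM) and Cd68 (1.47 against 1.10 CPM) were above the control in day 1 replicate 1, and the others were below it. Il1b, at 21.5 and 8.23 CPM at day 7, was far below its level in day 1 replicates 2 and 3, whereas the macrophage sums at day 7 were within or just above the range of those 2 libraries. Most of the sum in these 4 libraries was Lyz2, at 4731 and 1901 CPM in day 1 replicates 2 and 3 and 4626 and 3924 CPM at day 7. Single markers differed in either direction. Cd14 had 344 and 250 CPM in day 1 replicates 2 and 3 and 178 and 121 CPM at day 7. C1qa had 70.3 and 20.3 CPM, then 199 and 114 CPM. The part of either cell type in these levels was not tested.

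The 9 endothelial markers summed to 1185 CPM in the control, 133, 1061 and 307 CPM at day 1 and 1742 and 1276 CPM at day 7. Most of the sum in the control and at day 7 was Vwf, at 721, 1004 and 807 CPM. Il33, which endothelial cells and fibroblasts are known to hold, shared the low value in day 1 replicate 1. Erg (34.1 CPM there, 33.3 in the control) and Kdr (1.31 and 0.747 CPM) were not below the control in that library, and the other endothelial markers were. The fibroblast sum ranged from 20840 to 33102 CPM and was almost all Col1a1 and Col3a1. Without these collagens it was 1105 CPM in the control, 978, 1738 and 2047 CPM at day 1 and 3140 and 2852 CPM at day 7, also lowest in day 1 replicate 1. Of the listed genes, Pi16 (6.05 CPM there, 56.6 in the control), Dpt (69.6 and 108 CPM), Pdgfra and Dcn were lowest there too. The others were not: Lum was lowest in the control (365 CPM, against 494 in day 1 replicate 1), and Col1a1 and Col3a1 were lowest in day 7 replicate 1. The part of endothelial or fibroblast content in Il33 was not tested. For Il1rl1, which mast cells carry, the mast cell list gave 41.1 CPM in the control, 10.7, 30.7 and 7.21 CPM at day 1 and 55.3 and 21.0 CPM at day 7. Nearly all of that came from Kit and Gata2, which other cells of the wall also express, whereas Fcer1a and Ms4a2 were at 0 in every library and Cpa3, Tpsab1 and Tpsb2 at or below 0.0960 CPM. T and NK cell markers, another group in which Il1rl1 occurs, summed to 7.63 CPM in the control, 4.55, 92.8 and 36.9 CPM at day 1 and 192 and 176 CPM at day 7. Most of that was Cd4, which rat monocytes and macrophages also express. The other 9 genes summed to 2.01 CPM in the control, 2.02, 14.2 and 18.6 CPM at day 1 and 19.1 and 22.3 CPM at day 7, and their part was not tested. The marker sums without single genes were chosen after the values were seen. So were Lyz2, Cd68, Cd14, C1qa, Vwf, Erg, Kdr, Lum, Pdgfra, Dcn, Pi16, Dpt and Cd4 as single markers to name.

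**Figure D4:**
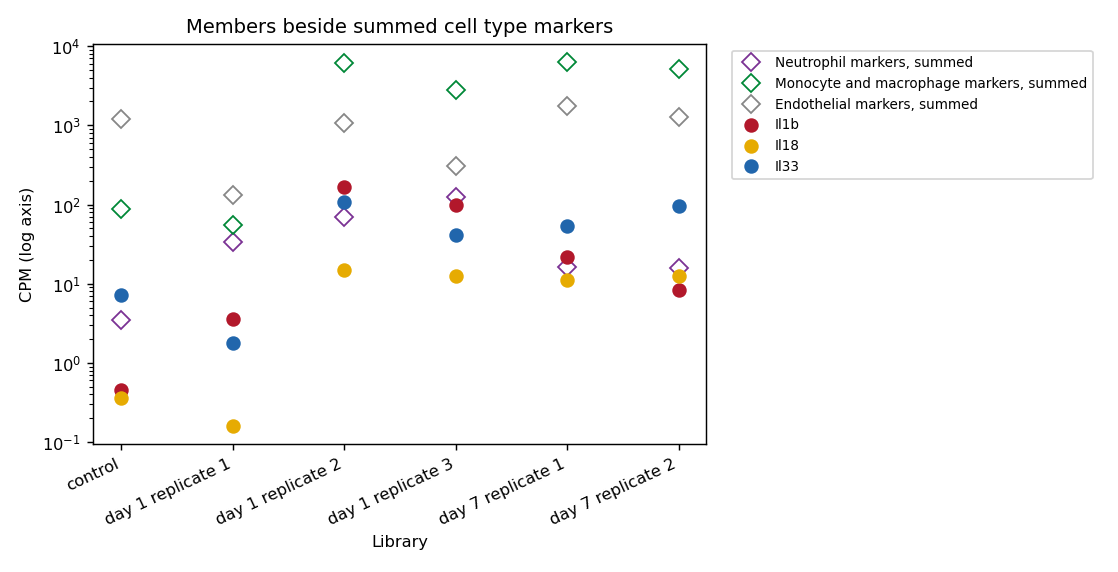
CPM on a log axis of Il1b, Il18 and Il33 (filled circles) and of summed neutrophil, monocyte and macrophage, and endothelial markers (open diamonds) in each library. Il18 and the macrophage sum are lowest in day 1 replicate 1, at 0.160 and 54.9 CPM. The Il18 value there rests on 5 counts, which counting cannot tell apart from the 11 counts in the control.

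The genes whose pattern lay nearest to a member were found by the root mean square difference of centred log2 CPM over the 6 libraries, among 12414 genes. For Il1b these were Sh2b2, an adaptor of receptor signalling (0.464 log2 units, Pearson r 0.989), Lilrc2 (0.538, r 0.992) and Klhl41, best known from striated muscle (0.541, r 0.998). For Il1rl1 they were Tnc, the matrix protein tenascin C (0.421, r 0.992), Plau, urokinase (0.430, r 0.989), and Ebi3, a cytokine subunit (0.473, r 0.992). For Il33 they were Cyp7b1, an oxysterol hydroxylase (0.333, r 0.993), Npl (0.367, r 0.985) and Cyp2d1 (0.376, r 0.985). These values describe 6 points that share their libraries. The genes were picked for their nearness over the same points, so a high r follows from the choice.

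The wider interleukin 1 axis comprised 75 listed genes, of which 65 were tested. With all libraries edgeR called 0 in each comparison, beside 0% of all tested genes, and limma-voom 0. DESeq2 called 24 at day 1, all higher, beside 4.46% of all genes higher and 0.687% lower. It called 12 at day 7 against the control, beside 3.90% higher and 1.08% lower. Between the time points it called 13, beside 1.32% higher and 1.87% lower. At an unadjusted p under 0.05 there were 24 higher and 0 lower at day 1, where 6.13% and 2.53% of all tested genes were. At day 7 against the control 13 were higher and 1 lower, beside 6.12% and 3.97%. Between the time points 2 were higher and 22 lower at day 7, beside 4.67% and 5.43%. Leaving that library out, edgeR called 20 of 64 higher at day 1, beside 4.83% of all genes, and 9 higher at day 7, beside 3.81%. It called none lower, beside 0.773% and 0.577%, and 0 between the time points, beside 0%. 

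Target genes that interleukin 1 is known to induce in vessel wall cells had the largest median at day 1 of the 4 lists. Whether interleukin 1 induced them in these arteries was not tested. All 24 had a positive fold change at day 1, as 54.0% of all tested genes did, with a median of 5.81 against 0.06 over all genes, or 4.74 with the 5 that were at 0 in the control set to the floor of 3 counts per library, and 12 passed without day 1 replicate 1, beside 4.83% of all genes. All 24 had a negative one for day 7 against day 1, as 50.1% of all genes did, with a median of -1.84. Several targets were high in day 1 replicate 1 too, and others were not. Il6, an acute inflammatory cytokine, had 61.1, 95.6 and 36.9 CPM at day 1 against 0.0649 in the control, and 11.4 and 1.15 at day 7. Cxcl1, a neutrophil chemokine, had 94.1, 462 and 176 CPM against 0.487, and 29.0 and 5.56 at day 7. Nfkbiz, a nuclear regulator induced by interleukin 1, had 116, 215 and 318 CPM against 16.4, and 123 and 38.3 at day 7. In contrast, Cxcl2 had 4.45 CPM in day 1 replicate 1 against 205 and 97.3 in the other day 1 libraries, and Nos2 0.832 against 69.6 and 30.1. Il1b was likewise lower there, at 3.62 against 166 and 97.2 CPM. Cxcl2 and Nos2 were chosen after the values were seen. Vcam1 and Sod2 had the smallest p of the list at day 1, with log2 fold changes of 2.55 ± 0.368 and 2.40 ± 0.377 (edgeR adjusted p = 0.385 for both, and 0.01815 and 0.0213 without day 1 replicate 1). Csf3, which encodes the granulocyte growth factor G-CSF, had 0.292 CPM in the control, 0.544, 42.4 and 3.19 at day 1 and 0 in both day 7 libraries.

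The smallest p at day 7 against the control were those of Ccl2, a monocyte chemokine (log2 fold change 8.08 ± 1.77, edgeR adjusted p = 0.477, and 0.0309 without day 1 replicate 1) and Vcam1 (1.40 ± 0.353, adjusted p = 0.477). Between the time points they were those of Ptgs2, the inducible prostaglandin synthase, at 227, 159 and 159 CPM at day 1 against 22.7 and 12.0 at day 7 (-3.39 ± 0.400, edgeR adjusted p = 0.402), and Sod2, a mitochondrial superoxide dismutase (-1.99 ± 0.275, adjusted p = 0.402). For both the 2 groups did not overlap.

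Among genes that mature and release the ligands, several were low in the control and in day 1 replicate 1 and higher in the other 4 libraries. Il18 and the summed monocyte and macrophage markers had that pattern too, and the part of these cells in the levels was not tested. Nlrp3, the inflammasome sensor, had 0.455 CPM in the control, 0.512, 32.5 and 23.8 at day 1 and 12.4 and 14.6 at day 7. Casp1, the protease that cleaves Il1b and Il18, had 2.69 CPM in the control, 0.576, 10.9 and 10.2 at day 1 and 12.6 and 12.0 at day 7. Nlrp3 passed at both times without day 1 replicate 1 (edgeR adjusted p = 0.00605 and 0.00742), as did Casp1 (0.0446 and 0.0374). The same held for Aim2, another sensor, which had 0 counts in the control, then 0.128, 1.85 and 3.61 CPM at day 1 and 4.69 and 6.26 at day 7 (0.0176 and 0.0141), and for Nlrc4, also a sensor (0.00779 and 0.00905). Pycard, named because it completes the set, passed as well (0.0375 and 0.0294). These were 5 of the 12 genes of the list tested in that fit at each time, beside 4.83% and 3.81% of all genes higher. With all libraries none of them passed. The median of the 13 tested genes was 1.01 at day 1 and 1.10 at day 7, and 0.34 between the time points. Among those with the smallest p, Ninj1, which ruptures the membrane of dying cells, was 0.91 ± 0.328 above the control at day 7 (edgeR adjusted p = 0.477). Capn1, a calpain, was 0.58 ± 0.183 above day 1 at day 7 (adjusted p = 0.461), while the neutrophil elastase gene Elane had at most 0.370 CPM in any library.

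Genes that carry the signal from the receptor differed much less. Their median was 0.27 at day 1 and -0.10 at day 7 against the control and -0.41 between the time points, with 20 of 22 negative in the last, beside 50.1% of all genes. Map3k8, a kinase of this pathway, had 9.22 CPM in the control, 24.8, 32.4 and 31.1 CPM at day 1 and 12.2 and 11.9 CPM at day 7. Its log2 fold change at day 1 was 1.68 ± 0.324 (edgeR adjusted p = 0.422, and 0.0337 without day 1 replicate 1) and -1.29 ± 0.240 between the time points (adjusted p = 0.407). Myd88, the adaptor of the receptor, had 30.5 CPM in the control, 51.1, 55.3 and 48.3 at day 1 and 49.6 and 45.6 at day 7, above the control in all 5 treated libraries (edgeR adjusted p = 0.564 and 0.477). Irak2, a kinase that prolongs the signal, had 28.8 CPM, then 42.8, 58.2 and 62.3 at day 1 and 33.9 and 20.9 at day 7, and Irak3, which dampens it, 25.2 CPM, then 38.0, 48.1 and 40.5, and 38.1 and 36.2. Mapk8, encoding a JNK kinase, had a log2 fold change of -0.96 ± 0.228 between the time points, and Map3k7, encoding the kinase TAK, one of -2.11 ± 0.812 for day 7 against the control (edgeR adjusted p = 0.426 and 0.477).

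Among the other ligands, receptors and binding proteins of the superfamily, 6 of the 13 listed genes were tested. Il18rap, a receptor chain for interleukin 18, had 0.0649 CPM in the control, 0.832, 12.2 and 5.22 at day 1 and 3.07 and 1.88 at day 7. It and Il36b passed at both times without day 1 replicate 1 (edgeR adjusted p = 0.0198 and 0.0463 for Il18rap, 0.00930 and 0.0163 for Il36b) and not with all libraries. Il18r1, the other chain, had 0.0974 CPM in the control, 0.0640, 2.00 and 1.77 at day 1 and 0.658 and 1.85 at day 7. Il18bp, which neutralizes interleukin 18, had 16.3 CPM in the control, 18.1, 59.2 and 23.1 at day 1 and 78.9 and 13.4 at day 7. Sigirr, an inhibitory receptor, had 1.69 CPM, then 0.832, 7.83 and 2.61, and 7.52 and 4.43 in the same order. Neither these nor Il1rl2 passed with or without that library. Il36g had 0 counts in every library, which allows up to 0.0598 to 0.0974 CPM.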

How the data were processed

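Read counts per gene symbol and FPKM values (scaled to gene length and library total) were made and deposited by the authors. The submitters' processing notes list HISAT2, StringTie 1.3.1, Bowtie2 2.2.8 and fastp 0.18.0. Their roles, the genome build, the annotation and any use of strand were not given in the sources used here. The deposited FPKM equal the counts scaled by 1 length per gene and the library total (relative spread at most 2.2e-14 over 12848 genes).

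Groups were taken from the sample titles. Genes passing filterByExpr (15860 of 24005) were TMM-normalized and fitted with robust dispersions in edgeR 4.0.16 (quasi-likelihood test; R 4.3.3), as 1 model of 3 group means whose 3 residual degrees of freedom come from the recanalized libraries. The control has no replicate and was assumed to vary like them. P-values were adjusted by Benjamini-Hochberg over all tested genes and called under 0.05. The SE is the fold change over the square root of its F. Intervals are exact 95% intervals for counting error only. Alternatives used DESeq2 1.42.0 and limma 3.58.1. The pipeline was also run on simulated counts, and the share of added changes that it recovered is not reported here. Replicate numbers are those of the sample titles. The count columns titled day 7 replicates 1 and 2 end in 2 and 3. Neither numbering was used to pair the libraries in the main fit.

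The members, gene lists, marker lists and naming rule (all members; fixed genes and the 2 smallest p of each wider list; the 3 genes nearest to Il1b, Il1rl1 and Il33) were chosen with earlier results of these data known. RefSeq promoter windows (GRCr8) were found for 8 of the 9 members, and 17871 of the symbols matched its annotation.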

Additional observations from a re-analysis of the deposited data

How the results depend on the processing

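Outside the replicate block, the direction of each member against the control held under every other normalization, count filter, test and left-out library tried, except for Il1rap at day 7, which was 0.0236 and 0.0281 with limma-trend on log2(FPKM + 1) and log2(FPKM + 0.1). Under the replicate block, in which replicate numbers entered the fit and 1 residual degree of freedom remained, Il1rap and Il33 at day 1 against the control reversed to -0.0302 and -0.18. Between the time points the block gave 0.34 for Il1rn and 0.94 for Il1rl1, moved Il33 and Il18 from 0.58 and 0.38 to 2.34 and 2.66, and it called 0 genes in each comparison. Deviations of same-numbered libraries had correlations of -0.05 and -0.05, with 2 pairs. By the numbers in the column names, these were 0.05 and -0.01. The 2 day 7 libraries deviate from their mean by opposite amounts, so these values are linked and cannot decide whether libraries are paired. A replicate block on the column numbers among the recanalized libraries, chosen after seeing the data, called 103 genes, 3 members (Il1a, Il1b and Il1rn, all lower at day 7) and 9 wider axis genes. In it Il18 reversed to -0.20, and day 1 replicate 1, alone in its block, contributed nothing to the contrast.

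The calls depended on 1 library and on the test. Leaving out 1 treated library at a time gave 0 to 885 genes called over the whole table at day 1 and 0 to 693 at day 7 against the control, 0 to 4 and 0 to 2 members, and 0 to 20 and 0 to 9 wider axis genes. The highest values came without day 1 replicate 1. DESeq2 called 817, 791 and 505 genes in the 3 comparisons, 5, 3 and 1 members, and 24, 12 and 13 wider axis genes. Limma-trend on FPKM called 1 gene at day 1 with either pseudocount and, at day 7 against the control, 2 with 1 added and 1 with 0.1 added. With no count filter 1 gene was called at day 7.

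For day 7 against day 1, Il1rl1 reversed to 0.84 with limma-voom, 0.66 and 0.93 with limma-trend after adding 1 and 0.1, and ranged from -1.0 to 1.61 over left-out libraries. Il1rn reversed to 0.00579 (0.1 added to the FPKM) and ranged from -2.85 to 0.38, and Il18 ranged from -0.20 to 0.92. The log2 ratio difference of Il1r2 to Il1r1 ranged from -1.19 to 0.31. The cause of these moves was not tested. Low counts limit Il1a in the control and in day 1 replicate 1.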
